A study of Mus musculus with 4 samples.

Results

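The nuclear genes for subunits of the mitochondrial respiratory chain and of ATP synthase were examined for binding of YAP in mouse epidermis. They were taken as the protein-coding genes whose symbols start with Ndufa, Ndufb, Ndufc, Ndufs, Ndufv, Uqcr, Cox4, Cox5, Cox6, Cox7, Cox8 or Atp5, together with Sdha, Sdhb, Sdhc and Sdhd. The rule gave 96 of 21631 protein-coding genes on the autosomes and X. They comprised 41 genes of complex I, 8 of its Ndufaf assembly factors, whose symbols share the prefix, 4 of complex II, 8 of complex III, 18 of complex IV and 17 of ATP synthase. The grouping follows the symbols, so Ndufa4, whose product is known as a subunit of complex IV, is counted with complex I. The rule uses symbols and no peak values, though it was set with earlier results of these data known.

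YAP-bound chromatin was measured by ChIP-seq (chromatin immunoprecipitation with sequencing), in which an antibody pulls down DNA crosslinked to a protein and the sequenced fragments pile up where that protein sat. Cells were suspensions of epidermis from adult mice of 18 to 25 weeks, collected at Zeitgeber time 4 (ZT4, the hour counted from lights on), either Bmal1 WT or Bmal1 KO. BMAL1 drives the circadian clock together with its partner CLOCK. The treatment protocol calls the second genotype Bmal1cKO, and no source used here gives the cells in which the gene was deleted, the number of mice or what was pooled. Of the 4 samples named (a YAP ChIP and an input per genotype), the 2 ChIP samples each gave 1 pooled peak list, called WT and KO below.

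Complex I oxidises NADH and complex II oxidises succinate, and both pass electrons through ubiquinone to complex III. Complex III passes them through cytochrome c to complex IV, which reduces oxygen, while complexes I, III and IV pump protons that drive ATP synthase. YAP is a co-activator of the Hippo pathway that has no DNA-binding domain of its own and reaches DNA mainly through TEAD factors, often beside AP-1. In epidermis it is known for its part in the proliferation of basal keratinocytes.

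The stretches below are shown because they carry a WT summit (the highest point of a peak) and hold letters of the searched motifs. Each is 270 bases from RefSeq (GRCm38.p6), 5′ to 3′ on the gene's strand, with 250 bases before the transcription start and 20 from it on. Capitals mark GGAATG, the core of the TEAD motif, in Cox5a and Ndufs7 (in Ndufs7 as its reverse complement), the E-box CACGTG read by clock factors in Ndufv1 and Atp5pb, and matches to the NRF1 motif on either strand in Sdha.
Cox5a, chr9:57520982-57521251, plus strand: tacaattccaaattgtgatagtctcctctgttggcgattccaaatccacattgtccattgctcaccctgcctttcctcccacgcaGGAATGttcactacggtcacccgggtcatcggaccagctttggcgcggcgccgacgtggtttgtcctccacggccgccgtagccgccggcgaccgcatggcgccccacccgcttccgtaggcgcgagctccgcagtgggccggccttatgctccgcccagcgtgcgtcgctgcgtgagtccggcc
Ndufs7, chr10:80249199-80249468, plus strand: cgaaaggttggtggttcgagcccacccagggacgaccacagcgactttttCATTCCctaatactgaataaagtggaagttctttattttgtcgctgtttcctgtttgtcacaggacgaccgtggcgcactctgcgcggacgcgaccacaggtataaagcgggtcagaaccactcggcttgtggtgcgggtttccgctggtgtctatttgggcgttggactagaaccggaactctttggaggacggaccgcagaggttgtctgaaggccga
Ndufv1, chr19:4012736-4013005, minus strand: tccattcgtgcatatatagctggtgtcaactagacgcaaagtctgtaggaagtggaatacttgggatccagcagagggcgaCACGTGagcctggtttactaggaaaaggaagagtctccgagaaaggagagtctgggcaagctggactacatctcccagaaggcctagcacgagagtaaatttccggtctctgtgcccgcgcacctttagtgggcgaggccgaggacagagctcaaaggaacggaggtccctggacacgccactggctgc
Atp5pb, chr3:105959244-105959513, minus strand: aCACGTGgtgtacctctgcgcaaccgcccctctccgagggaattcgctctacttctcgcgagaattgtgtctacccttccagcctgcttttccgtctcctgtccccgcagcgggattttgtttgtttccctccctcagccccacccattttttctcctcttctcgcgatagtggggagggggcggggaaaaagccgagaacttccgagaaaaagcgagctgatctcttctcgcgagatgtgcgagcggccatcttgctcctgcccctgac
Sdha, chr13:74350221-74350490, minus strand: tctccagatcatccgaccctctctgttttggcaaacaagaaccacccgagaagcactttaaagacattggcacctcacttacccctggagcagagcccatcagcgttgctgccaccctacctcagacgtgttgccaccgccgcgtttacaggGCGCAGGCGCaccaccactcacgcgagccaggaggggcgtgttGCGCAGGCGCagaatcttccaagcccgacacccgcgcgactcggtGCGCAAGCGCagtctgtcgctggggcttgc
The Cox5a summit lay 112 bp before the start, that of Ndufs7 227 bp before, that of Ndufv1 13 bp before, that of Atp5pb 177 bp before and that of Sdha 15 bp after it. Cox5a and Ndufs7 were bound in both lists, as was Atp5pb, and the peaks at Ndufv1 and Sdha were in the WT list only.

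The WT list held 36576 peaks and the KO list 14879. The reads stacked at each summit, recovered from the deposited fold and p, had a median of 61 in WT (28 to 290) and 52 in KO (29 to 223). Reads spread evenly over the genome would stack to 9.63 at any point in either list. Each peak was linked to its nearest gene within 100 kb, which gave 52.5% of all genes a linked peak in WT and 29.8% in KO. All 10 of 10 keratinocyte markers had a linked peak in both lists. In WT 1 of 5 fibroblast, 1 of 4 endothelial and 2 of 5 immune markers had one, and in KO 1, 1 and 0. Melanocyte markers had one at 4 of 4 in WT and 2 of 4 in KO, and a peak near a gene is no measure of its expression. At Arntl, the Bmal1 gene, 9 of 15 linked WT peaks overlapped KO peaks, which does not check the genotype. With 1 pool per genotype there was no replicate error and no test, so a difference between WT and KO is a difference between these libraries. Intervals are exact 95% binomial ones and cover counting error only, and fewer bound cells and less binding per cell cannot be told apart.

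YAP summits lay within 2 kb of either end of 52 of the 96 genes in WT (54.2%, interval 43.7 to 64.4) and of 16 in KO (16.7%, 9.84 to 25.7). Over all protein-coding genes the shares were 41.6% in WT and 16.0% in KO. The WT share of the respiratory chain genes was above that of all genes, and the KO share was close to it. All 16 genes with a KO summit near an end also had a WT one there, 36 had one in WT only and 0 in KO only. Of the 52, 39 had 1 WT peak near an end and 13 had more, with 4 at Atp5d as the most. The farthest summit inside the 2 kb limit lay 1728 bp from an end of Ndufs8, and the nearest one outside it lay 2211 bp from Ndufb10.

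**Figure D1:**
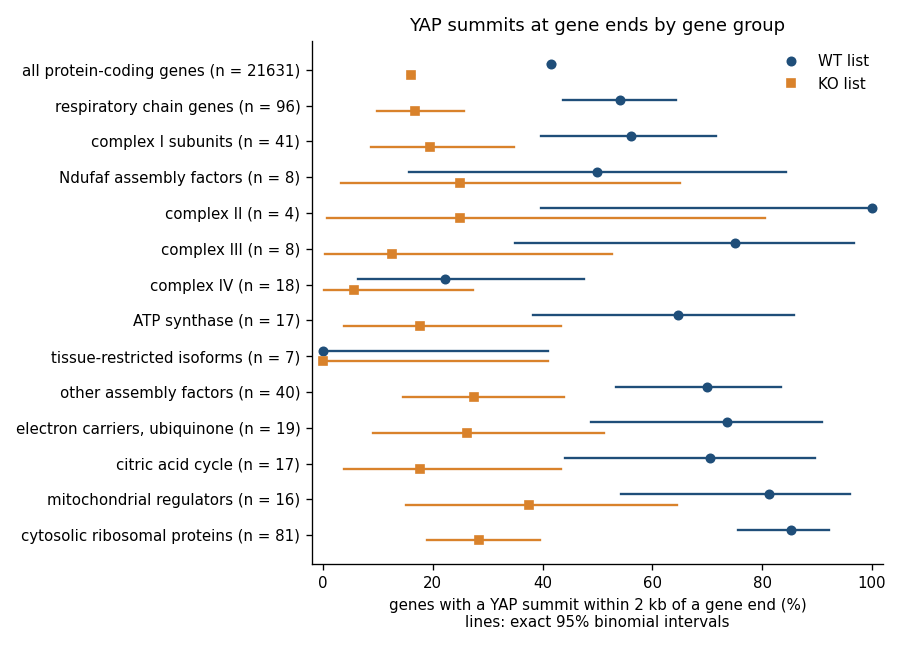
Share of genes in each group with a YAP summit within 2 kb of a gene end, in percent, for the WT list (circles) and the KO list (squares), with exact 95% binomial intervals as lines. Complex II stands at 4 of 4 genes in WT, complex IV at 4 of 18 and the tissue-restricted isoforms at 0 of 7, and the KO share is lower than the WT share in each group that had a WT summit.

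In complex I, 23 of 41 genes (56.1%) had a WT summit near an end and 8 a KO summit. Accessory subunits surround the catalytic core of complex I. Of the 34 genes counted as accessory by symbol alone, Ndufa4 among them, 17 had a WT summit. The highest WT score belonged to Ndufb9, an accessory subunit of the membrane arm, with 107 WT reads and 53 KO reads at chr15:58933171-58933922. That summit lay 281 bp outside Ndufb9 and 236 bp from Tatdn1. Ndufa12, an accessory subunit, had 93 WT and 54 KO reads at a summit 244 bp before its start, and Ndufa6 had 76 and 44 at 380 bp before its own. Ndufv2, a core subunit with an iron-sulfur cluster, had 92 WT and 52 KO reads at 364 bp before the start. These 4 peaks were lower in KO, with ratios of KO to WT reads of 0.495 to 0.581. After background subtraction KO was lower at 99.5% of all overlapping WT peaks near a gene end.

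Ndufb6 had 1 peak at each end. The peak 80 bp before its start held 68 WT reads and overlapped no KO peak, while the one beyond its other end held 77 WT and 37 KO reads and lay 31 bp from Topors. Of the genes without any KO overlap, Ndufs5 had 59 WT reads 1 bp from its start and Ndufb2 had 55 at 74 bp after its own. Ndufv1, the core subunit that binds NADH and flavin, had 80 WT reads at 13 bp before the start, the most of any peak near these genes that overlapped no KO peak. Its local background was 20.2 reads, more than 2 times the even level, and its score was 139. How far the local background bears on that score was not tested. Outside the naming rule, and picked after their values were seen, Ndufs7 had 72 WT and 45 KO reads, Ndufs6 67 and 37, and Ndufa4, the gene grouped here by its symbol, 61 and 53. The Ndufa4 summit was 258 bp before its start and 17 bp from Phf14.

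Among the Ndufaf assembly factors, which build complex I and are not part of it, 4 of 8 had a WT summit and 2 a KO summit. Ndufaf3 had 110 WT and 59 KO reads at 148 bp after its start, 196 bp from Dalrd3. Ndufaf7, a methyltransferase, had 95 and 51 reads at 2 bp before its start, 63 bp from Cebpz. The near-end peaks of Ndufaf6, with 51 WT reads, and of Ndufaf1, with 41, overlapped no KO peak.

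All 4 complex II genes had a WT summit (interval 39.8 to 100), each of 59 reads or fewer. The flavoprotein Sdha had 48 WT reads, the iron-sulfur subunit Sdhb 45 at its stronger peak, and the membrane anchor Sdhd 40, with Timm8b 40 bp away. None of these overlapped a KO peak. The other anchor, Sdhc, had 59 WT and 37 KO reads, with a WT local background of 20.2 reads.

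In complex III, 6 of 8 genes had a WT summit and 1 had a KO summit. That gene was Uqcrc1, a core protein of the matrix side, whose peak at chr9:108948951-108950285 was the strongest near any of the 96 genes with 145 WT and 77 KO reads. The summit lay 300 bp inside the downstream end of the gene and 12693 bp from its start, and the WT peak covered 2 separate KO peaks. The peak at the Uqcrc1 start held 45 WT reads and overlapped none. The Rieske iron-sulfur protein Uqcrfs1 (50 WT reads), Uqcrq (59), Uqcrh (55, with Lrrc41 98 bp away) and Uqcr11 (38) were in the WT list only.

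In complex IV, 4 of 18 genes (22.2%, interval 6.41 to 47.6) had a WT summit and 1 a KO summit. The genes Cox4i2, Cox6a2, Cox6b2, Cox7a1, Cox7b2, Cox8b and Cox8c encode isoforms known mainly from tissues such as lung, muscle or testis. None of these 7 had a WT or KO peak near an end, which allows a share of up to 41.0%. None was the nearest gene within 100 kb of a peak either. Peaks nearer to other genes did lie within that distance, with WT summits 10348 bp from an end of Cox7a1 and 12207 bp from one of Cox4i2. Without them 4 of 11 complex IV genes (36.4%) had a WT summit. Cox7a2l, which joins complexes III and IV in supercomplexes, had 67 WT and 43 KO reads at 119 bp before its start. Cox5b (42 WT reads), Cox4i1 (48) and Cox8a (39) were in the WT list only.

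Among the ATP synthase genes 11 of 17 (64.7%) had a WT summit and 3 a KO summit, at 3 of 5 genes of the catalytic F1 head and stalk and 8 of the other 12. The highest score was at Atp5md, a small membrane subunit, with 78 WT reads and no overlapping KO peak. Its summit lay 170 bp before the start and 82 bp from Pdcd11. Atp5pb, the b subunit of the peripheral stalk, had 71 WT and 35 KO reads, 58 bp from Wdr77. Atp5d, the delta subunit of the central stalk, had 4 WT peaks near its ends. The strongest of these held 76 WT and 46 KO reads. Another held 56 and 36 and lay 70 bp from Midn, and those of 68 and 63 WT reads overlapped no KO peak. A peak of more reads but lower score inside Atp5d, farther than 2 kb from both ends, held 94 WT and 47 KO reads. Its WT local background was 27.4 reads and its score 137, against 11.5 and 222 at the peak of 76 reads. Of the genes for the c subunit of the rotor ring, Atp5g1 had 70 WT and 43 KO reads at 392 bp before its start, and Atp5g2 had 60 WT reads at 73 bp after its own. Atp5l had 64 WT reads, and its peak, like those near the ends of Atp5g2, overlapped no KO peak.

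**Figure D2:**
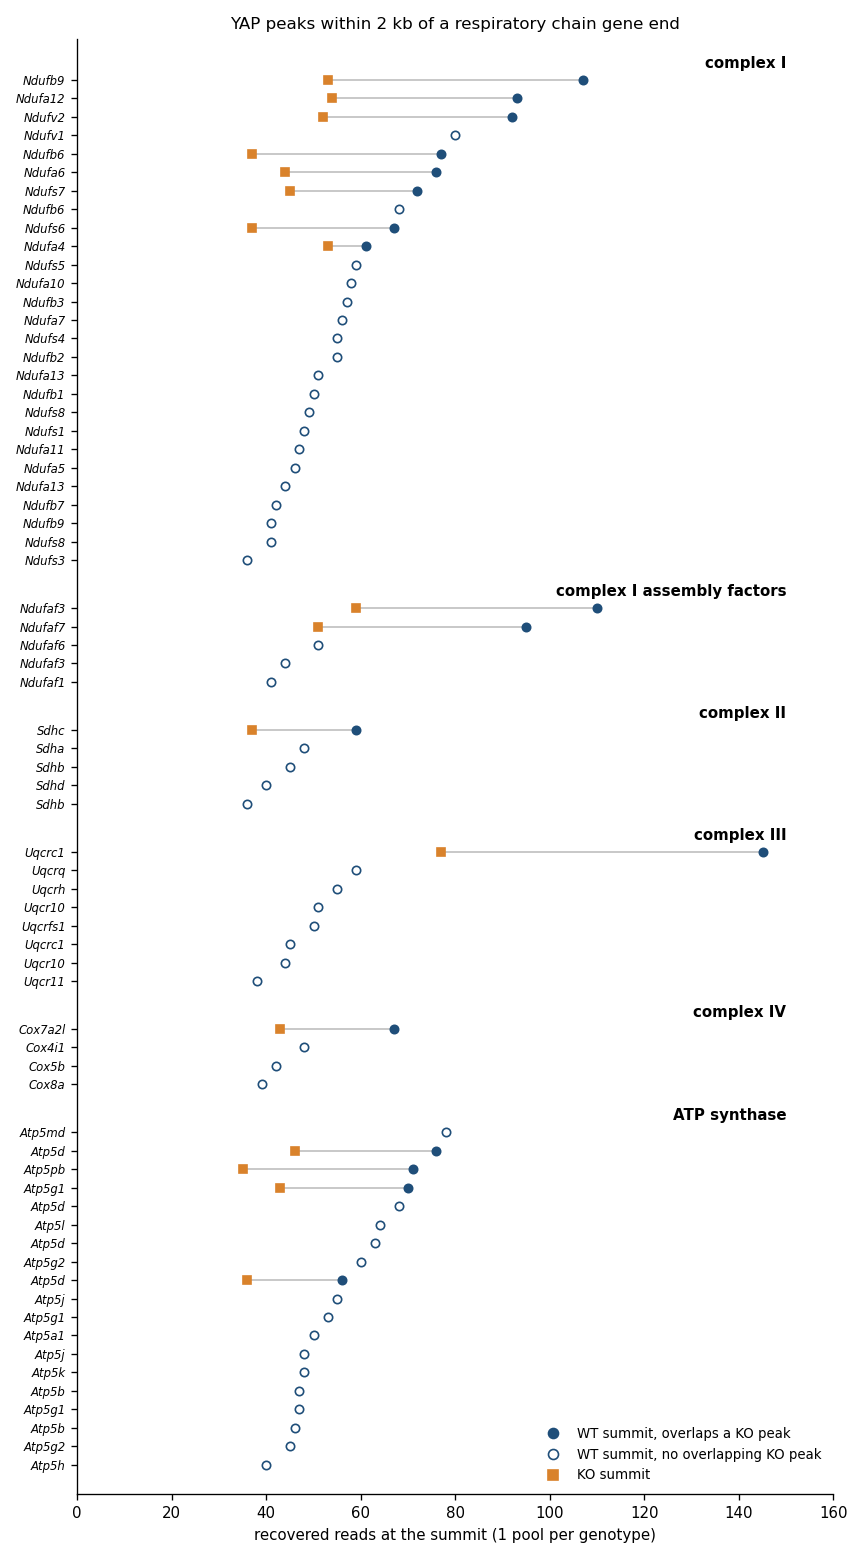
Reads at the summit of the YAP peaks near respiratory chain genes, by complex, in WT and, where an overlapping KO peak was called, in KO. Peaks of WT alone lie at 36 to 80 reads, and the peaks with a KO overlap reach 145 WT reads and 77 KO reads.

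Near the 96 genes lay 68 WT peaks, of which 17 overlapped a KO peak by 1 bp or more (25.0%, interval 15.3 to 37.0). The share was 32.5% over all WT peaks within 2 kb of a gene end and 39.1% over all WT peaks. The peaks near respiratory chain genes were weak, with a median of 52 WT reads (36 to 145) against 58 near any gene end and 61 over the list. Of the 68, 3 (4.41%) held 100 reads or more, at Uqcrc1, Ndufaf3 and Ndufb9, against 12.03% near any gene end. The 51 peaks of WT alone had a median of 48 reads, and 44 of them held fewer than 60. The fewest reads at any summit of the KO list were 29, and a site missing from that list is not shown to be unbound.

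Overlap with KO went with WT strength. None of the 4 peaks under 40 reads or the 24 of 40 to 49 overlapped a KO peak. The count was 2 of 18 at 50 to 59 reads, 3 of 8 at 60 to 69, 6 of 7 at 70 to 79, 3 of 4 at 80 to 99 and 3 of 3 from 100 on. Over other peaks near a gene end the shares in the same classes were 1.14%, 2.90%, 10.6%, 27.5%, 51.3%, 77.9% and 98.8%. At those rates 14.5 of the 68 would overlap a KO peak, and 15.9 at the rates of all other WT peaks, beside the 17 counted. The lower overlap than that of all peaks near a gene end was not seen among peaks of like strength.

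**Figure D3:**
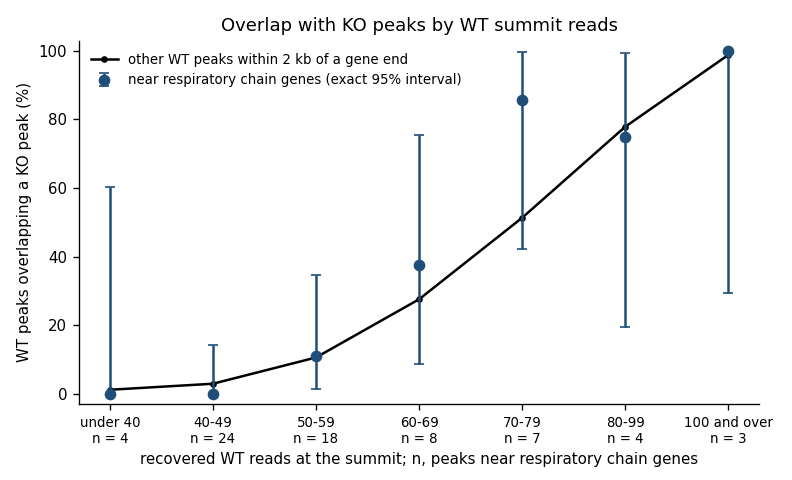
Share of WT peaks that overlap a KO peak, in percent, by reads at the WT summit, for peaks near respiratory chain genes (with exact 95% binomial intervals) and for other peaks near a gene end. Both climb with WT reads, from 0 of 4 in the weakest class to 3 of 3 in the strongest near the respiratory chain genes.

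At the 17 peaks with a KO overlap the median was 76 reads in WT and 45 in KO (35 to 77). After the even background was subtracted from both, KO was lower at 17 of 17, beside 99.5% of all such peaks near a gene end. The median log2 ratio of KO to WT was -0.95 (-1.30 to -0.24), against -0.93 near any gene end and -0.88 over the list. The lowest value was at the downstream end of Ndufb6 and the highest at Ndufa4, where 61 WT and 53 KO reads gave a ratio of 0.869 (counting interval 0.590 to 1.28). It was the only one of the 17 whose interval of the read ratio reached 1. At Uqcrc1 the ratio was 0.531 (0.397 to 0.705). These ratios exist only where KO was called.

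The WT share lay above that of all genes only while peaks under 60 reads were counted. With at least 50 reads 35 of the 96 genes (36.5%) had a WT summit near an end, against 31.5% of all genes. With at least 60 reads it was 19 (19.8%) against 22.9%, and with at least 100 reads 3 (3.13%) against 6.25%. In KO, 7 genes had a summit of 50 reads or more (7.29%, against 8.22% of all genes), 1 of 60 or more (against 4.79% of all genes) and 0 of 80 or more, where the interval reached 3.77% and the share of all genes was 2.12%. At 100 or more the KO count was 0, against 0.989% of all genes. When the WT list was reduced to its highest-scoring peaks, as many as in the KO list, 12 genes (12.5%, interval 6.63 to 20.8) remained, against 16.3% of all genes. The 81 genes for cytosolic ribosomal proteins, another set of broadly used genes, had a WT summit at 69 (85.2%, 75.6 to 92.1) and a KO summit at 23 (28.4%). Their peaks had a median of 59.5 WT reads and reached 219 WT and 148 KO reads at Rpl13.

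**Figure D4:**
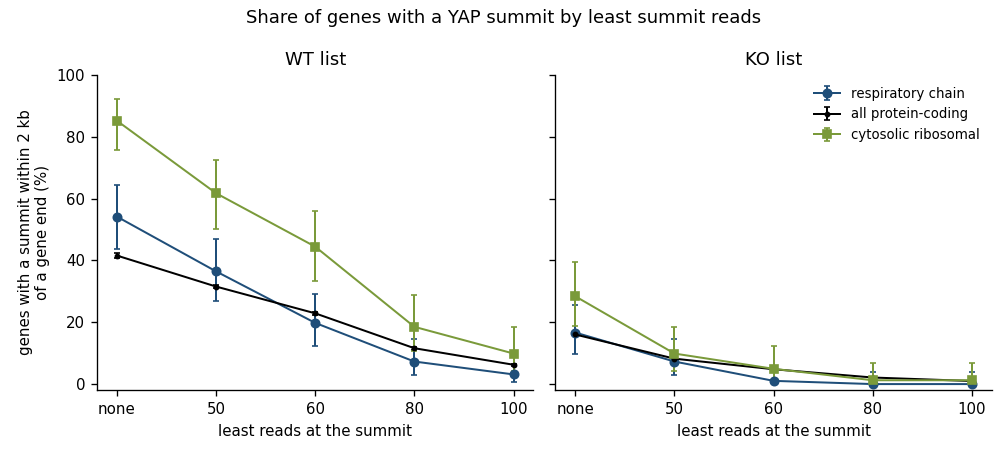
Share of genes with a YAP summit within 2 kb of an end, in percent, when only summits of at least the number of reads on the x axis count, for respiratory chain genes, all protein-coding genes and cytosolic ribosomal protein genes. The respiratory chain genes lie above all genes in WT up to 50 reads and below from 60 reads on, and the ribosomal protein genes lie above both in WT.

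Most of the peaks sat at transcription starts. Of 78 of the genes with a start record in RefSeq, 45 had a WT summit within 500 bp of one (57.7%, interval 46.0 to 68.8) and 12 a KO summit (15.4%), against 34.9% and 11.0% of 17274 genes. The median position was 13 bp before the start, with 24 summits upstream and 21 downstream of it. Over all genes the median was 32 bp before the start. Of the 60 pairs of a peak and a gene with a known start, 44 lay within 500 bp of it. Of the other 16, 9 were nearer to the start side of the gene, 3 of them at Atp5d, and 7, the strong Uqcrc1 peak among them, to the other end. Cox5a, with 118 WT and 62 KO reads, and Cox7a2, with 52 WT reads and no KO overlap, had summits at a start that lay farther than 2 kb from the ends of the annotated gene. They are not among the 52.

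**Figure D5:**
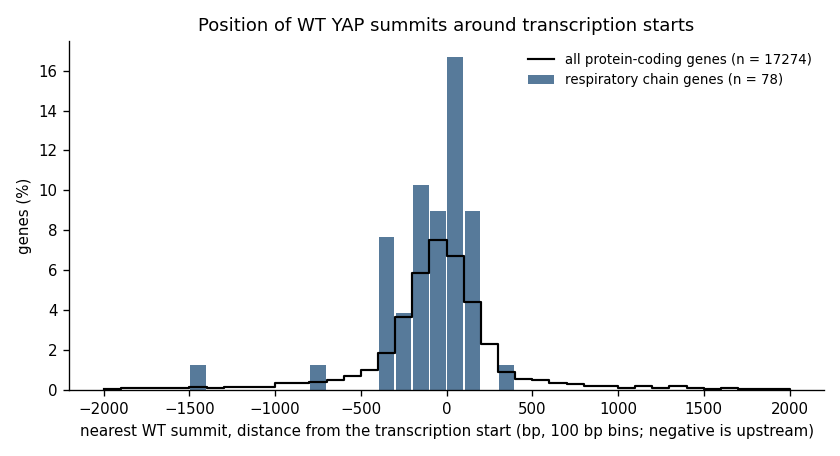
Distance in bp of WT summits from the nearest transcription start, negative upstream, for the respiratory chain genes (bars) and all protein-coding genes (line), as the percent of genes with a start record in each 100 bp bin. Both pile up at the start, with medians of -13 and -32 bp over the summits within 500 bp.

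Many of these starts face another gene. A start on the opposite strand lay within 1 kb of that of 24 of the 78 genes (30.8%), against 9.73% of genes. Of the 24, 16 had a WT summit at the start (66.7%, interval 44.7 to 84.4), close to the 67.3% of all genes with such a neighbour. Of the other 54, 29 had one (53.7%, 39.6 to 67.4), against 31.4% of all genes without a recorded neighbour. A neighbour whose start has no record was not counted. Some of the 54 had an end of another gene near the summit, such as Ndufaf7 with Cebpz 63 bp away. In all, 36 of the 68 WT peaks (52.9%) had an end of another gene within 2 kb, against 19.1% of all peaks near a gene end, and 17 were nearer to that gene. Such a peak cannot be assigned to 1 of the genes.

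The promoters were taken as the 300 bases from 250 before the start to 50 after it. They had a median of 20 CpG dinucleotides against 13 over all promoter records. Medians over promoters with a WT summit within 500 bp were 20.5 for the respiratory chain and 23 for all genes. Among promoters of 20 or more CpG, 27 of 42 of the respiratory chain (64.3%, 48.0 to 78.4) had a WT summit within 500 bp, against 58.1% of all. At 10 to 19 the count was 21 of 36 (58.3%, 40.8 to 74.5) against 40.3%, and under 10 it was 0 of 5 against 7.58%. The difference from all genes was smaller at 20 or more CpG than at 10 to 19, though the intervals of these classes overlapped.

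The NRF1 motif, bound by a regulator of nuclear genes for mitochondria, was in 20 of 83 promoter records (24.1%, 15.4 to 34.7) against 6.44% of 21045, and CCGGAAG, read by ETS factors such as GABP, in 19 (22.9%) against 11.7%. The TEAD core GGAATG was in 9 (10.8%) against 13.5%, the AP-1 motif TGANTCA in 7 (8.43%) against 7.04% and the E-box CACGTG in 7 (8.43%) against 7.91%. Both strands were searched, and none of the 72 matches overlapped one to another motif. The 83 records belong to 78 genes. Overlapping records of a gene, such as those of Ndufa7, Ndufa5 and Atp5d, each count a match that they share. The intervals on promoter records do not allow for this. The records with a WT summit within 500 bp numbered 48. NRF1 letters were in 11 of these and in 9 of the other 35, ETS letters in 14 and 5, the E-box in 6 and 1, AP-1 in 4 and 3 and TEAD in 3 and 6. Over all promoters with a summit the shares were 12.8% for NRF1, 21.5% for ETS, 11.5% for the E-box, 5.39% for AP-1 and 12.9% for TEAD, against 3.36%, 6.91%, 6.15%, 7.84% and 13.8% without one. The 2 TEAD matches and 2 E-boxes shown in the sequences above are thus examples of few, and a match is only a run of letters.

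In the second view each peak was linked to the nearest gene within 100 kb. This gave 80 WT peaks at 51 of the 96 genes (53.1%, against 52.5% of all genes) and 25 KO peaks at 20 genes (20.8%, 13.2 to 30.3, against 29.8%). Of the 80, 23 overlapped a KO peak (28.8%, 19.2 to 39.95, against 39.0%). KO was lower at 23 of 23 with a median log2 ratio of -0.91. Over the whole list KO was lower at 14237 of 14315 overlapping WT peaks, with a median of -0.88. The genes are short, with a median of 7228 bp against 17329 bp. Of the linked peaks 32 lay farther than 2 kb from both ends, and they included the strongest. At Ndufaf6 a peak 40010 bp away (chr4:11115841-11116652) held 184 WT and 112 KO reads. Atp5g2 had one of 160 and 90 reads at 2901 bp, and Ndufv3, a complex I subunit, one of 155 and 92 at 4204 bp. The Cox5a peak described above lay inside its gene, and Ndufs4 had a peak of 88 and 51 reads at 52303 bp. Also among the 10 highest scores were the near-end peaks of Uqcrc1, Ndufa12, Ndufaf3 and Ndufv2.

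Other genes of mitochondrial energy supply are given beside the 41.6% of all genes with a summit near an end in WT and the 16.0% in KO, with no test of a difference from the respiratory chain genes. Assembly factors of the complexes outside the rule had a WT summit at 28 of 40 (interval 53.5 to 83.4%) and a KO summit at 11 (27.5%). They were led by Cox11, a copper chaperone of complex IV, with 108 WT and 44 KO reads and Lyrm7, a complex III factor, with 94 and 42. Electron carriers and ubiquinone synthesis had one at 14 of 19 in WT (73.7%, 48.8 to 90.9) and 5 in KO (26.3%), led by Coq8b with 132 and 64 reads and Etfa with 121 and 72. The citric acid cycle list had one at 12 of 17 in WT (70.6%, 44.0 to 89.7) and 3 in KO (17.6%), led by Pdha1 of pyruvate dehydrogenase with 88 and 54 reads. Regulators of mitochondrial genes had one at 13 of 16 in WT (81.3%, 54.4 to 96.0) and 6 in KO (37.5%), led by Tfb1m with 116 and 46 reads and Ppargc1b with 94 and 44, while the peak at Nrf1 with 69 WT reads overlapped none. The WT intervals of all 4 lists overlapped that of the respiratory chain genes. Each named pair was lower in KO, beside 99.5% of all overlapping WT peaks near a gene end after background subtraction.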

How the data were processed

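YAP ChIP-seq peaks of 1 WT and 1 KO epidermal pool were used, with groups taken from the genotype labels. The submitters' processing notes name Trimmomatic 0.36, SAMtools 1.5, MACS2 2.1.1 and build mm10, without roles. No source used here gives the aligner, input handling or filters. In the authors' lists each peak has a deposited score, 10 times the −log10 q truncated to a whole number, a fold ratio of summit signal over the caller's background, and −log10 p and −log10 q values, the lowest q values lying at 2.01 (WT) and 2.03 (KO). These values are the authors'. The score ranked peaks within a list, and fold and p gave the reads below.

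Whole reads stacked at a summit were derived from its fold and p. They matched within 0.002 of −log10 p in 100% of peaks, against 0.867% (WT) and 0.397% (KO) with the scaling 3% off. Of 4000 simulated peaks per list, 100% gave their exact reads. The simulated peaks were built with the same formulas, so they check the solving only. The scaling was 0.694 for WT and 0.842 for KO. Read depth per library is not given in the files, and the even-spread background came to 9.63 reads in both lists. The ratios of KO to WT reads take this as a common scale, and whether the libraries were brought to equal depth is not stated in the labels.

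Gene spans came from RefSeq GRCm38.p6, which mm10 shares. Kept peaks overlapped a KO peak by 1 bp, and the strongest KO peak gave the ratio. Log2 ratios had 9.63 reads subtracted on both sides. Named genes were, per complex, the 5 of highest WT score and the 3 highest without KO overlap, the tissue-restricted isoforms, and the 10 highest linked peaks. The naming rule, the members and the lists were chosen with earlier results of these data known. Some items that the rule names are not reported here. Python 3.11.15, pandas 2.3.3 and scipy 1.17.1 were used. Alternatives varied the window, the overlap, the link limit, the list size, the read and q limits and the background.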

Additional observations from a re-analysis of the deposited data

How the results depend on the processing

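No paired analysis was possible because WT and KO are 1 pool each. No replicate could be left out for the same reason. When the WT list was reduced to the KO number, 12 genes had a WT summit (12.5%, against 16.3% of all genes). Of the WT peaks near the genes 69.2% overlapped KO, and the median WT reads were 78. In the linked view 18 genes had a peak and 71.4% of linked peaks overlapped KO. Overlap shares over all peaks were not computed for the reduced list. At other peaks near a gene end overlap also rose with WT reads, from 1.14% under 40 to 98.8% from 100 on. With −log10 q of at least 10, 29 genes had a WT and 7 a KO summit, and the shares of all genes at that limit were not computed. With at least 50 reads 7 had a KO summit (7.29%, against 8.22% of all genes). Without background subtraction the median log2 ratio was -0.79. The other 30 of 39 values moved by less than their interval or 1.5 times. Among them, windows of 1 and 5 kb gave 51 and 60 genes in WT, 16 and 21 in KO, and 26.6% and 29.0% of peaks overlapping KO. A 50% reciprocal overlap gave 17.6%, and left Ndufs7, Atp5g1, Atp5pb, Ndufb6 and Uqcrc1 without a KO partner. Summits within 200 bp gave 23.5% and removed 1 of the Atp5d pairs. Counting only genes nearest to the peak gave 43 in WT and 13 in KO. For the windows, the overlap rules and this count, the shares over all genes or peaks were not computed. The read limit, the nearest-gene count and a local background (-0.94) were added after seeing the data. Depth limits absence: a summit below 29 reads was in no KO peak.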
